A study of Mus musculus with 4 samples.

Results

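The cells described here are Lgr5-positive cells of the small-intestinal crypt whose transcripts place them in G2 or mitosis. They were picked from single-cell libraries by measured values. A cell barcode was kept with at least 500 genes, at least 1000 UMIs (unique molecular identifiers, which count captured RNA molecules) and at most 20% mitochondrial UMIs. A kept cell was a member with at least 1 Lgr5 UMI, at least 6 UMIs summed over Mki67, Top2a, Ube2c, Ccnb1, Cenpa, Birc5 and Cdk1, less than 5% of its UMIs from Lyz1 and the Defa genes, and no Ptprc UMI. The rule gave 524 members of 12285 kept cells, out of 16565 deposited barcodes. There were 145 in syngeneic 1, 90 in syngeneic 2, 154 in allogeneic 1 and 135 in allogeneic 2. Values for the 4 libraries are given in that order throughout.

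The libraries came from small-intestinal crypts of lethally irradiated female C57BL/6 mice of 8 to 12 weeks, on day 7 after bone marrow transplantation (BMT). The 2 syngeneic libraries came from recipients of C57BL/6 marrow, which the labels call control mice. The 2 allogeneic libraries came from recipients of BALB/c marrow, which the labels describe as having graft-versus-host disease. Every group therefore carries irradiation and a transplant, and no unirradiated group was analysed here. Each library is a pool of 3 to 4 mice, so the number of independent samples is 2 a group. The library names begin with KO, which the labels leave unexplained. The comparison asks how dividing stem cells differ between an allogeneic and a syngeneic graft.

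Lgr5 is a receptor for R-spondins that strengthens Wnt signalling, and it marks the cycling stem cells between the Paneth cells at the crypt base. These cells renew the epithelium and are among the dividing cells that irradiation injures. In G2 a cell that has copied its DNA builds up cyclin B, its partner kinase Cdk1 and the spindle and kinetochore proteins. It then separates its chromosomes and destroys many of these proteins through the anaphase-promoting complex. Interferon-gamma, a cytokine of activated T and NK cells, acts through its receptor and JAK kinases. Its targets include IRF1, guanylate-binding proteins, immunity-related GTPases, the MHC genes and the chemokines Cxcl9 and Cxcl10.

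Promoters of 3 genes of the rule and of 4 genes that were higher in allogeneic members are printed here because both gene groups carry known regulatory letters. Each window runs from 250 bases before to 50 bases after the RefSeq start, on GRCm38.p6, printed 5′ to 3′ on the gene's strand. In the cell cycle genes the capitals mark the cell cycle homology region, CHR (TTTGAA or TTTAAA), and the CCAAT box (CCAAT), on either strand. The windows are chr13:100786437-100786736, minus strand, for Ccnb1, which encodes cyclin B1, chr10:69352863-69353162, minus strand, for Cdk1, its partner kinase, and chr11:99024140-99024439, minus strand, for Top2a, which untangles DNA before chromosomes separate.
Ccnb1: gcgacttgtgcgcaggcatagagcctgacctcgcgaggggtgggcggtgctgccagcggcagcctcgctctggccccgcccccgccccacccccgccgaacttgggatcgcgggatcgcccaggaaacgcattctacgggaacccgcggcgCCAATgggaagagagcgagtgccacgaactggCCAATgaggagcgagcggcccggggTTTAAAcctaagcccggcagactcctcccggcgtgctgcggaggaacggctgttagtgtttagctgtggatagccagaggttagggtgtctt
Cdk1: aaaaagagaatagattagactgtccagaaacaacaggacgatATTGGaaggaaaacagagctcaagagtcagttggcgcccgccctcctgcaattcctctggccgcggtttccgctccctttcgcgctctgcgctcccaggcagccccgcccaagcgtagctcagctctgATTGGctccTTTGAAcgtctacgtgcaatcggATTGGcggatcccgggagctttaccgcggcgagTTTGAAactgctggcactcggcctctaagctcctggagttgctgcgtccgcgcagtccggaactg
Top2a: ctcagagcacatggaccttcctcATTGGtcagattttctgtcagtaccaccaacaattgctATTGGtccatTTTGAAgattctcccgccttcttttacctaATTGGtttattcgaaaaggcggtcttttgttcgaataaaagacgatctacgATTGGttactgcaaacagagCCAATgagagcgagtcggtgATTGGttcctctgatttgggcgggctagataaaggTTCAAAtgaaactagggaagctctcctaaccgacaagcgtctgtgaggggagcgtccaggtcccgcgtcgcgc

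In the interferon-responsive genes the capitals mark the gamma-activated site (TTCNNNGAA) and the core of the interferon-stimulated response element (GAAANNGAA), on either strand, where overlapping matches run together. The windows are chr3:142620413-142620712, plus strand, for Gbp2, a guanylate-binding protein, chr11:58199306-58199605, plus strand, for Igtp, an immunity-related GTPase, chr2:122147437-122147736, plus strand, for B2m, the invariant chain of MHC class I, and chr5:92328030-92328329, minus strand, for Cxcl9, a chemokine that draws CXCR3-positive T cells.
Gbp2: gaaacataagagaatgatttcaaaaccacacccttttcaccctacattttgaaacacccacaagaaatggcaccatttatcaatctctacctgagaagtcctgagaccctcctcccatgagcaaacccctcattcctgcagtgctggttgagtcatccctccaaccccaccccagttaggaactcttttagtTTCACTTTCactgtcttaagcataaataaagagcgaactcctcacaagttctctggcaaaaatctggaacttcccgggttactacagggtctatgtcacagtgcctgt
Igtp: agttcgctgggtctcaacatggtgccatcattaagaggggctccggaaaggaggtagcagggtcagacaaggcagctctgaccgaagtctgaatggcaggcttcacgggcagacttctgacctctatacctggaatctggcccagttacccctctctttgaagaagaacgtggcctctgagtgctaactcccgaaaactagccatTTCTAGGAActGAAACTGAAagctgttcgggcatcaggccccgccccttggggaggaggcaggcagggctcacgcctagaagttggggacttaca
B2m: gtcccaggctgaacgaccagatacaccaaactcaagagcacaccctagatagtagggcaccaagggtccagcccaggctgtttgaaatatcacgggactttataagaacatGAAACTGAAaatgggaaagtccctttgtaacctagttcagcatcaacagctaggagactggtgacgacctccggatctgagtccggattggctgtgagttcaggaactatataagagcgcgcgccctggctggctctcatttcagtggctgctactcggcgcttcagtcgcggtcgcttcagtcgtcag
Cxcl9: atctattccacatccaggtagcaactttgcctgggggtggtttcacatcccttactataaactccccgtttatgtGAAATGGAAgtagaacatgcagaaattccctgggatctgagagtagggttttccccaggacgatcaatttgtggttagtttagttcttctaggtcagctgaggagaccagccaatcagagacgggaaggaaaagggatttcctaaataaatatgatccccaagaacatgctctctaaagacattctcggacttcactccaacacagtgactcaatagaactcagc

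A CHR was present in 7 of 7 windows of the mitotic rule genes, and a CCAAT box in 6 of 7. Over all 32851 RefSeq promoter windows the shares were 27.59% for the CHR and 37.41% for the CCAAT box. Of the 94 genes on 6 lists of mitotic genes, 80 matched a promoter, and of their 88 windows 61.36% held a CHR and 67.05% a CCAAT box. Of the 73 genes that were higher in allogeneic members, 54 matched, with 60 windows. The CCAAT box was in 58.33% of these windows too, near its share in the mitotic lists, and the CHR was in 18.33%. The response element core was in 35% of these windows against 8.56% of all windows, and the gamma-activated site was in 18.33% against 8.298%. Igtp held both, 30 and 41 bases before the start. A match of letters is a description and shows neither a bound factor nor a cause.

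The members carried the markers named in their label, which the rule itself used in part. Lgr5 (chr10:115450311-115587780, minus strand, GRCm38) was at 186, 161, 155 and 120 CPM, the counts per 1000000 member UMIs. Of the 524 members, 334 held exactly 1 Lgr5 UMI (63.7%). Mki67 was at 284, 282, 286 and 148 CPM in members, and at 39.3, 49.5, 33 and 38.9 CPM in the 304 Lgr5-positive cells outside mitosis, which fell under 6 UMIs. Top2a was at 599, 548, 559 and 437 CPM in members, and Ube2c, which encodes the ubiquitin-conjugating enzyme of the anaphase-promoting complex, was at 546, 473, 527 and 727 CPM. Epcam, the epithelial adhesion molecule, had a UMI in 524 of 524 members. No Lgr5 UMI was found in 226 lymphocytes (Ptprc and Cd3 detected, Epcam at 0), which allows a share of up to 1.33% at their median depth of 1603.5 UMIs. Members had a median of 9793 UMIs.

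Near the limits of the rule, 23 cells with a sum of 5 UMIs were just outside and 26 with a sum of 6 just inside. The limit on Lyz1 and Defa UMIs kept out 119 cells, at 48, 33, 19 and 19, and 6 members lay between 4% and 5%. The Ptprc limit alone kept out 4 cells.

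The summed member counts were 1293036, 790220, 2004812 and 1576029 UMIs. The median per cell was 8111, 8091.5, 11985.5 and 10806 UMIs, so that allogeneic members were sampled more deeply. The median mitochondrial share was 7.63%, 7.87%, 8.10% and 4.11%, lowest in allogeneic 2. In profile the 2 syngeneic libraries differed least (SD of log2 differences over genes 0.474), the 2 allogeneic ones differed by 0.644, and pairs across the groups by 0.577 to 0.784. Scrublet, a doublet caller, marked 0, 0, 1 and 3 members and 0.871% of kept cells. Over all kept cells, 17 barcodes occurred in more than 1 library, and 1 member had such a barcode.

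Kept Lgr5-positive cells numbered 377, 248, 295 and 195, of which 270, 161, 237 and 160 met the Lyz1, Defa and Ptprc limits. Among the Lgr5-positive cells within these limits, the share in G2 or mitosis was 53.7%, 55.9%, 65.0% and 84.4%. The exact 95% binomial intervals were 47.6% to 59.8%, 47.9% to 63.7%, 58.5% to 71.0% and 77.8% to 89.6%, respectively. The mean over libraries was 54.8% ± 1.55 (SD, n = 2) in the syngeneic and 74.7% ± 13.7 (SD, n = 2) in the allogeneic group. The difference of 19.9 percentage points had an exact two-sided permutation p of 0.3333, the smallest that 2 against 2 libraries allow. Both allogeneic values lay above both syngeneic ones, and the spread between the allogeneic libraries was nearly as wide as the difference. When every cell was thinned to 5000 UMIs, with shallower cells left out, the shares were 61.8%, 61.8%, 60.0% and 74.7%, and the groups overlapped. At matched depth only allogeneic 2 stood above the syngeneic libraries.

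Of all mitotic cells under the same limits, 18.9%, 15.6%, 23.7% and 10.7% held an Lgr5 UMI, so the allogeneic libraries lay on either side of the syngeneic ones. Of all kept cells without Ptprc, members were 5.08%, 3.68%, 8.13% and 2.84%. The allogeneic libraries held the highest and the lowest value of each of these shares, also after thinning, at 13.6%, 11.5%, 15% and 6.72% of mitotic cells. Intervals cover counting error only.

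**Figure D1:**
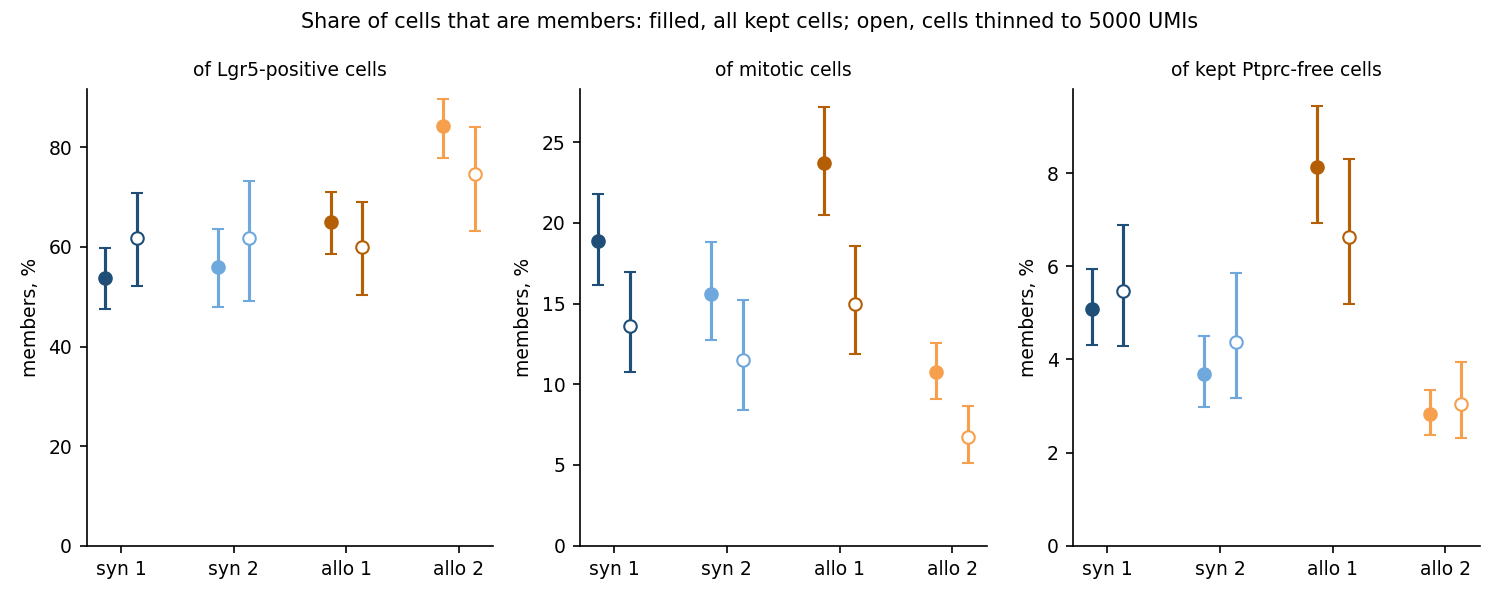
Members as a percentage of Lgr5-positive cells, of mitotic cells and of kept cells without Ptprc, one symbol for each library, with exact 95% binomial intervals that cover counting error only. The Lgr5-positive and mitotic cells are those within the Lyz1, Defa and Ptprc limits of the rule. In the first panel the filled allogeneic symbols, at 65.0% and 84.4%, stand above the syngeneic ones at 53.7% and 55.9%. The open symbols overlap there, at 60.0% and 74.7% against 61.8% and 61.8%. In the other panels the allogeneic libraries stand on either side of the syngeneic ones.

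The transplant comparison within members was fitted over 8767 genes with edgeR's quasi-likelihood test on summed UMIs per library. At a Benjamini-Hochberg adjusted p under 0.05, 73 genes were higher in allogeneic members (0.833% of genes tested) and 14 were lower (0.16%). The median log2 fold change over all genes was 0.03. The count filter kept genes abundant enough in any 2 libraries, so a gene near 0 in syngeneic members could enter through the allogeneic ones alone. Counts of genes tested and called on a list are therefore descriptions. The calls rest on 2 libraries a group: without allogeneic 1 there were 1115 higher and 620 lower, and without syngeneic 2 there were 52 higher and 9 lower. With members thinned to 5000 UMIs, an alternative added after seeing the data that left 456 cells, 36 were higher and 4 lower.

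Of 94 genes on the lists of mitotic entry, chromosome condensation, centromere, spindle, checkpoint and cytokinesis, 0 passed in edgeR and 0 in DESeq2, and 3 had an unadjusted p under 0.05. These lists leave out the 7 genes of the rule, but the cells were chosen on those genes of the same programme. The median log2 fold change was -0.03, with a range of -0.62 to 0.96. The background of calls was 0.833% higher and 0.16% lower.

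Plk1, the kinase that drives mitotic entry, was at 55.7, 68.3, 56.9 and 52.7 CPM. Aurka, a kinase of the centrosome and spindle, was at 61.1, 54.4, 47.4 and 48.9 CPM. Ccnb2, another B-type cyclin, was at 114, 108, 149 and 96.4 CPM. For Plk1 and Ccnb2 the groups overlapped, and for Aurka the allogeneic values lay slightly below the syngeneic ones with a log2 fold change of -0.15 (SE 0.27). Cdc20, which activates the anaphase-promoting complex, was at 118, 111, 153 and 110 CPM. Cenpf, a kinetochore protein of G2 and mitosis, was at 259, 221, 280 and 165 CPM. Hmmr, a spindle protein, was at 83.5, 94.9, 78.8 and 67.9 CPM, with allogeneic values below the syngeneic ones and a log2 fold change of -0.16 (SE 0.26). The 3 genes with an unadjusted p under 0.05 were Mybl2, a transcription factor of the CHR-bound complex, Dlgap5, a spindle protein, and Mad2l1, a checkpoint protein. Their log2 fold changes were 0.96, 0.88 and 0.77, with edgeR adjusted p of 0.388, 0.382 and 0.314.

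Per cell, members thinned to 5000 UMIs held a median of 11, 9, 11 and 10 UMIs of the 7 rule genes, which is a description since these genes chose the cells. Plk1 was at 15.7, 16.5, 6.18 and 9.73 CPM in Lgr5-positive cells outside mitosis and at 74.5, 69, 60.9 and 62.9 CPM in mitotic cells without Lgr5. In each library the level in members lay between those of the other classes.

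Genes of the preceding S phase gave no call either. Of 32 genes tested, 0 were higher and 0 lower, with a median log2 fold change of 0.10. Pcna, the sliding clamp of DNA polymerase, was at 92, 102, 86.3 and 111 CPM, and Mcm6, a subunit of the replicative helicase, was at 94.4, 98.7, 99.8 and 87.6 CPM. The lowest p of the list belonged to Prim1 and Pola1, subunits of the primase complex. Prim1 was at 61.1, 62, 36.9 and 27.9 CPM, with a log2 fold change of -0.81 (SE 0.27, edgeR adjusted p = 0.301).

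The stem cell genes also gave no call, with wide spread between the allogeneic libraries. Of 24 genes of the crypt base list tested, 0 were higher and 0 lower, with a median log2 fold change of -0.09. The list, which includes Olfm4, summed to 7243, 6625, 5987 and 2740 CPM, lowest in allogeneic 2. Olfm4 (chr14:79984081-80023139, plus strand), a secreted protein abundant in these stem cells, was at 3938, 3514, 2806 and 973 CPM. Both allogeneic values lay below both syngeneic ones, but those 2 were further apart from each other than allogeneic 1 was from the syngeneic libraries. The fitted log2 fold change was -0.91 with an SE of 0.37, and the edgeR adjusted p was 0.487. Ascl2, the transcription factor that maintains Lgr5 stem cells, was at 68.1, 46.8, 39.9 and 48.2 CPM. Smoc2, an extracellular matrix protein of the crypt base, was at 137, 123, 148 and 64.7 CPM. Slc12a2, a chloride transporter, was at 885, 815, 991 and 423 CPM. In Smoc2 and Slc12a2 allogeneic 1 was the highest library and allogeneic 2 the lowest.

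Of Wnt targets 18 were tested and 0 passed in either direction. Axin2, the feedback inhibitor that reads out Wnt signalling, was at 103, 92.4, 85.8 and 50.1 CPM, with a log2 fold change of -0.42 (SE 0.28, edgeR adjusted p = 0.808). Of 12 genes of Notch signalling and fate choice 0 passed. Nrarp, a Notch target that dampens the pathway, was at 46.4, 40.5, 21.4 and 12.1 CPM, with a log2 fold change of -1.26 (SE 0.32, edgeR adjusted p = 0.109). In allogeneic 2 the 13 mitochondrially encoded genes summed to 44563 CPM against 81212, 83463 and 82767 in the other libraries, and the absorptive progenitor list summed to 524, 463, 299 and 2163 CPM. The part of either in the stem cell values of that library was not tested. Without allogeneic 1, so that allogeneic 2 stood alone, the median log2 fold change was -0.25 for the crypt base list. It was 3.15 for the absorptive progenitor list and -0.04 over all genes.

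**Figure D2:**
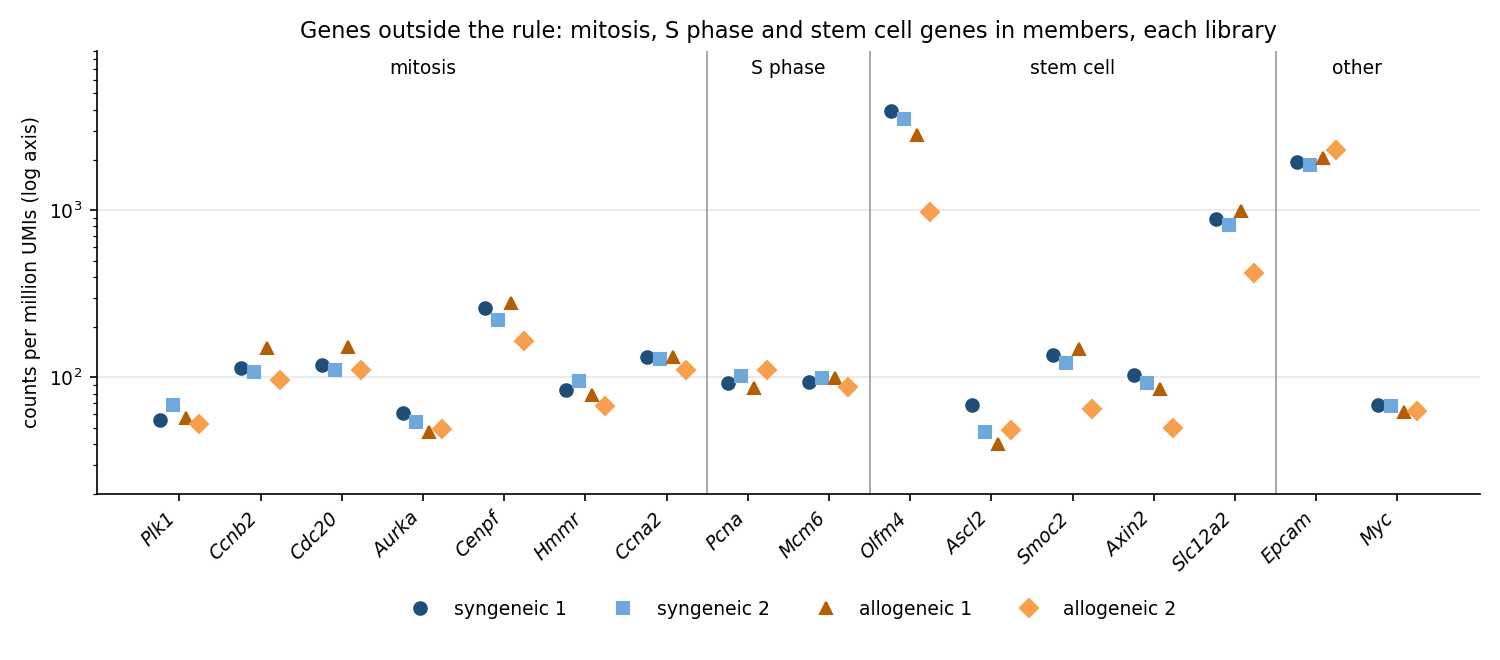
CPM (log axis) of genes that the rule did not use, summed over members, one symbol for each library. The mitosis and S phase genes lie close together in the 4 libraries, while Olfm4, Smoc2, Axin2 and Slc12a2 are lowest in allogeneic 2.

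The largest changes in allogeneic members were in genes known to respond to interferon-gamma. The GTPase list held 15 tested genes, of which 13 were higher, 0 lower and 2 not called. Its summed level was 329, 291, 1444 and 1921 CPM. The median log2 fold change was 2.90, or 2.66 with genes of few syngeneic UMIs set to their bounds, against 0.03 over all genes. Of 20 listed genes, 17 had a UMI in members, and without the low-count filter 15 of these 17 were higher. Genes such as Gm4951, Gbp5 and Gbp4, near 0 in syngeneic members, entered the main fit through the allogeneic libraries alone. Near-identical genes in this family, such as Tgtp1 and Tgtp2 and the Gbp cluster, may share reads, and so may H2-Q6 and H2-Q7.

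Gbp2 (chr3:142620602-142638008, plus strand) was at 15.5, 15.2, 177 and 272 CPM, with a log2 fold change of 4.01 (SE 0.39) and an edgeR adjusted p of 0.000511. Iigp1, an immunity-related GTPase that attacks the membranes around intracellular parasites, was at 61.1, 56.9, 359 and 449 CPM, with a log2 fold change of 2.90 (SE 0.34) and an adjusted p of 0.00112. Igtp was at 46.4, 41.8, 191 and 294 CPM, with a log2 fold change of 2.60 (SE 0.35) and an adjusted p of 0.00364. In these 3 genes the syngeneic values nearly coincided, and allogeneic 2 exceeded allogeneic 1. Gbp7 was at 24.7, 21.5, 150 and 123 CPM, and Gm4951 at 2.32, 1.27, 52.9 and 79.3 CPM. For genes with 3 or fewer syngeneic UMIs a ratio of summed UMIs with its exact counting interval is given in place of the fitted value. Gbp5 had 2 syngeneic and 119 allogeneic UMIs, a ratio of 34.6 (interval 9.38 to 289), and Gbp4 had 3 and 114, a ratio of 22.1 (7.38 to 109).

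Chemokines of the CXCR3 receptor, which T cells carry, were near 0 in syngeneic members and abundant in allogeneic ones. Cxcl9 was at 0.773, 2.53, 194 and 727 CPM, with 3 syngeneic and 1533 allogeneic UMIs, a ratio of 297 (interval 102 to 1443). Cxcl10 was at 1.55, 0, 172 and 363 CPM, with 2 and 917 UMIs, a ratio of 267 (interval 73.6 to 2206). The edgeR adjusted p was 0.00159 for Cxcl9 and 0.00029 for Cxcl10. Of 6 genes tested on the chemokine list, these 2 were higher and Ccl25 was lower. Cxcl9 and Cxcl10 entered the test through the allogeneic libraries alone. Without the low-count filter 5 of 12 genes were higher and 1 was lower.

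Ido1 (chr8:24584136-24597009, minus strand), which breaks down tryptophan and restrains T cells, showed the largest fitted change. It was at 0.773, 0, 238 and 581 CPM, with 1 syngeneic and 1393 allogeneic UMIs, a ratio of 810 (interval 145 to 32030, edgeR adjusted p = 0.00029). Ubd, a ubiquitin-like protein that interferon-gamma induces, was at 3.09, 0, 249 and 791 CPM, with a log2 fold change of 8.22 (SE 0.87) and an adjusted p of 0.000858. Cd274, which encodes PD-L1, the ligand of the T cell checkpoint receptor PD-1, had 1 syngeneic and 44 allogeneic UMIs, a ratio of 25.6 (interval 4.36 to 1034, edgeR adjusted p = 0.0362). The complement genes Serping1 and C3 had 0 syngeneic UMIs and 62 and 33 allogeneic ones, at least 12.0-fold and at least 6.4-fold higher against a floor of 3 UMIs over the group. Wars, the tryptophanyl-tRNA synthetase that interferon-gamma raises, was at 71.2, 83.5, 262 and 281 CPM, a log2 fold change of 1.94 (SE 0.31). DESeq2 did not call Cd274, Serping1 or C3. Of 17 genes tested on this list 7 were higher and 0 lower. Ido1, Ubd, Cd274, Serping1 and C3 entered the test through the allogeneic libraries alone. Without the low-count filter 9 of 27 genes were higher and 0 lower.

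**Figure D3:**
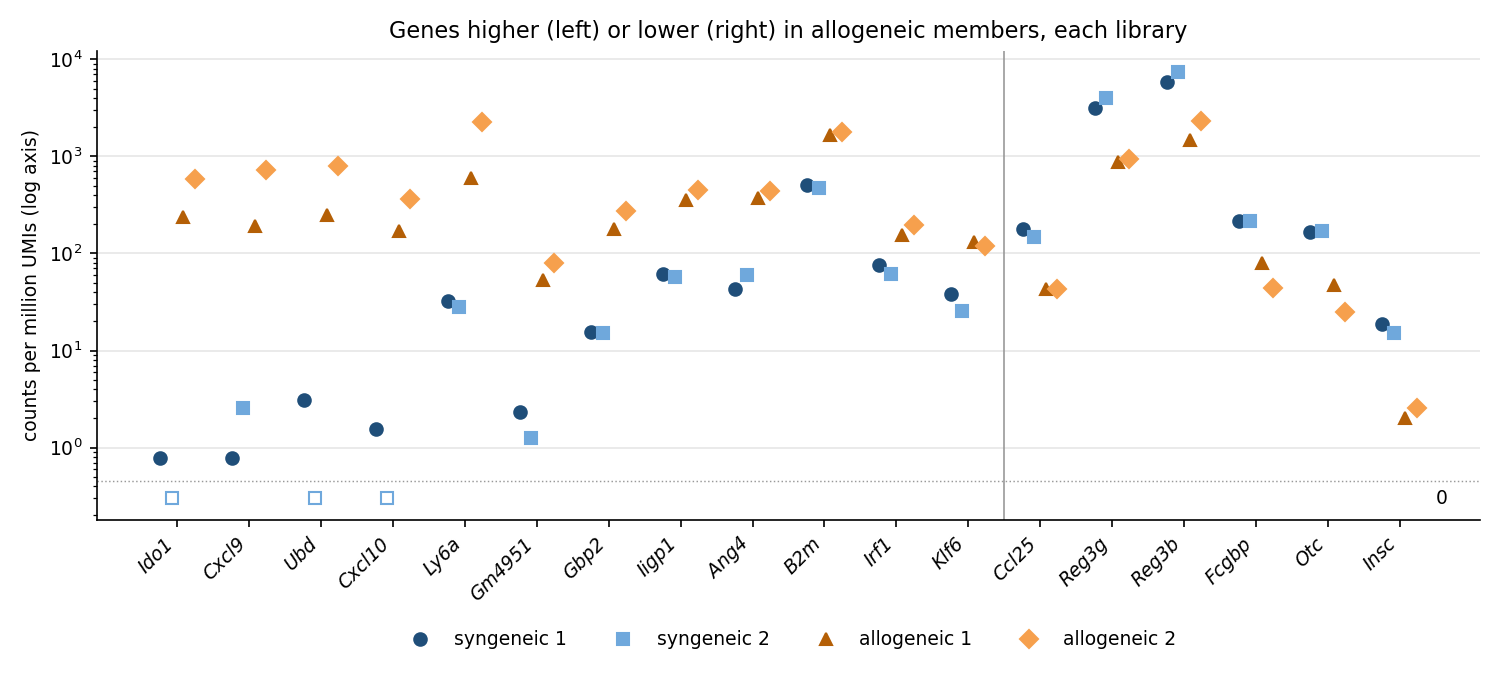
CPM (log axis) in members of 12 genes that were higher and 6 that were lower in allogeneic members, one symbol for each library, with open symbols on the lowest line for 0. The genes were chosen from those called. Ly6a is at 32.5 and 27.8 CPM in the syngeneic libraries and at 595 and 2277 CPM in the allogeneic ones.

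Of the genes of antigen presentation, 9 of 23 tested for class I and 2 of 9 for class II were higher. The MHC class I list, with its peptide transporters and chaperones, summed to 4983, 4764, 10649 and 10960 CPM, with 0 genes lower and a median log2 fold change of 1.10. B2m (chr2:122147686-122153083, plus strand) was at 510, 469, 1671 and 1801 CPM, with a log2 fold change of 1.95 (SE 0.29) and an edgeR adjusted p of 0.00691. H2-K1, a classical class I heavy chain, was at 635, 620, 2043 and 1732 CPM, and H2-Q7, a non-classical class I gene, at 47.2, 34.2, 323 and 228 CPM. Tap1, a subunit of the peptide transporter, was at 62.6, 49.4, 212 and 161 CPM. The lower allogeneic value was above the higher syngeneic one in each of these 4 genes. With either syngeneic library left out B2m, H2-K1 and Tap1 were no longer called.

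MHC class II, which presents peptides to CD4+ T cells, summed to 5189, 4905, 10011 and 9752 CPM. The genes that were higher were H2-DMb2 and H2-Aa, and 0 were lower. H2-Aa, the alpha chain of I-A, was at 599, 559, 1434 and 1322 CPM, with a log2 fold change of 1.37 (SE 0.29) and an edgeR adjusted p of 0.0427. DESeq2-type size factors ended this call in edgeR, while DESeq2 itself called H2-Aa. Cd74, the invariant chain, was at 2921, 2822, 5033 and 5608 CPM and did not pass (log2 fold change 1.02, SE 0.26, adjusted p = 0.12). The class II genes were thus abundant in syngeneic members too.

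Of the receptors and transcription factors that carry the signal, 4 of 20 genes tested were higher and 0 lower. Irf1 was at 75.8, 60.7, 157 and 196 CPM, with a log2 fold change of 1.49 (SE 0.30) and an edgeR adjusted p of 0.04. Socs1, the feedback inhibitor of JAK kinases, was at 13.9, 8.86, 39.9 and 98.3 CPM, with a log2 fold change of 2.69 (SE 0.50) and an adjusted p of 0.0261. Irf7 and Stat2, which serve the type I interferon response, were called in edgeR and not in DESeq2. Of 21 antiviral genes tested 7 were higher and 0 lower, among them Bst2, which tethers budding virus, at 29.4, 31.6, 159 and 235 CPM.

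Ly6a (chr15:74994877-74998031, minus strand), which encodes the surface protein Sca-1, known both as an interferon target and as a marker of regenerating crypt epithelium, was at 32.5, 27.8, 595 and 2277 CPM. The fitted log2 fold change was 5.75 with an SE of 0.68, and the edgeR adjusted p was 0.00245, and allogeneic 2 stood well above allogeneic 1. On the list of genes tied to regeneration and YAP, 2 of 11 tested were higher and 0 lower, with a median of 1.15, or of 0.38 without allogeneic 2. The other was S100a6, a calcium-binding protein, at 130, 152, 368 and 1015 CPM, which DESeq2 did not call. Areg, the growth factor amphiregulin, had 2 syngeneic and 114 allogeneic UMIs, a ratio of 33.2 (interval 8.97 to 277), with an edgeR adjusted p of 0.0865.

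Immediate-early genes, transcription factors that cells switch on within minutes of a stimulus, were among the calls. Of 26 genes on the list of immediate-early and heat shock genes, 5 were higher and 0 lower. Egr1 was at 51, 20.2, 241 and 147 CPM, with a log2 fold change of 2.49 (SE 0.38) and an edgeR adjusted p of 0.00786. Klf6 was at 38.7, 25.3, 132 and 121 CPM, and Atf3, a stress-induced factor, at 24, 11.4, 78.8 and 99.6 CPM. Fos and Junb, subunits of AP-1, were the other 2. Without syngeneic 2 only 1 of the 5, Atf3, was still called. In each of the 3 genes given, both allogeneic libraries lay above both syngeneic ones.

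The lists of p53 targets and of cell death genes each held 1 call, beside 0.833% higher and 0.16% lower over all genes. Their median log2 fold changes were 0.29 and 0.39, against 0.03 over all genes. An unadjusted edgeR p under 0.05 was found for 2 of 12 p53 targets and 6 of 22 cell death genes, beside 729 of 8767 genes. Of 12 p53 targets tested 1 was higher, Trp53inp1, at 1.55, 3.8, 51.4 and 11.4 CPM, and 0 were lower. Cdkn1a, the p53-induced inhibitor of cyclin-dependent kinases, was at 20.9, 11.4, 21.4 and 27.3 CPM, with an edgeR adjusted p of 0.75. Mdm2, the ubiquitin ligase that limits p53, was at 22.4, 20.2, 19.5 and 20.9 CPM. Of 22 cell death genes 1 was higher and 0 lower. This was Zbp1, a sensor that can start necroptosis and is itself an interferon target, at 10.8, 11.4, 31.4 and 56.5 CPM (log2 fold change 2.11, SE 0.42, edgeR adjusted p = 0.037).

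Lists of growth and metabolism gave 0 calls in either direction. They were MYC-linked growth, with 24 genes tested, the unfolded protein response with 17, glycolysis with 13 and the mitochondrial genome with 13. Myc was at 68.8, 67.1, 62.4 and 62.8 CPM.

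**Figure D4:**
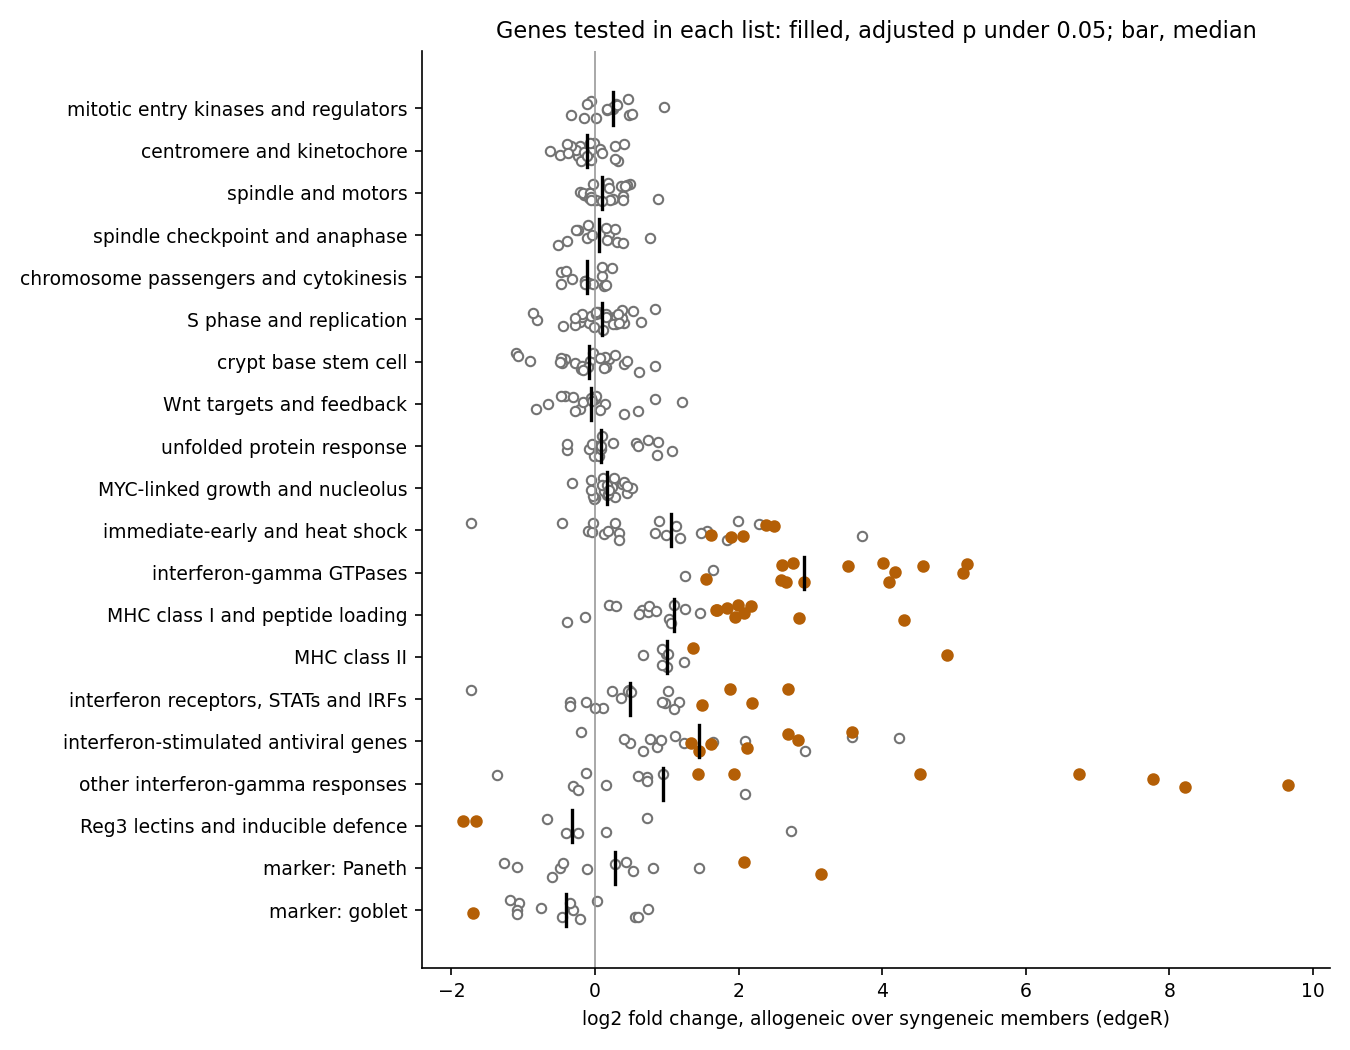
Log2 fold changes, allogeneic over syngeneic members, of the genes tested in 20 of the gene lists, with filled points for an adjusted p under 0.05 and a bar at each list's median. Fitted values of genes with few syngeneic UMIs, such as Ido1, depend on the prior count. Mitosis, S phase and stem cell lists centre near 0, and the interferon-gamma GTPases centre at 2.90.

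The 14 genes that were lower in allogeneic members were led in abundance by antimicrobial lectins. Reg3g (chr6:78466269-78468872, minus strand), which kills gram-positive bacteria, was at 3142, 3986, 883 and 947 CPM, with a log2 fold change of -1.83 (SE 0.29) and an edgeR adjusted p of 0.00834. Reg3b (chr6:78370657-78373466, plus strand) was at 5831, 7400, 1464 and 2322 CPM, with a log2 fold change of -1.66 (SE 0.32) and an adjusted p of 0.0318. These paralogs may share reads. They were the only 2 of 8 tested genes called on the list of inducible defence genes, whose sum was 10205, 12737, 3634 and 3927 CPM. The list's median was -0.32. In the lymphocytes of the same libraries, which should lack Reg3g, it had 1, 3, 7 and 9 UMIs in 4, 16, 127 and 79 cells. Those cells held 5418, 23949, 296643 and 149531 UMIs in all. Per UMI the defence list was higher in the syngeneic lymphocytes, at 738, 418, 60.7 and 114 CPM, the direction also seen in members. The lymphocyte values are a gauge of free RNA, from barcodes chosen with Epcam at 0. The part of free RNA in the member values was not tested. With either syngeneic library left out neither Reg3g nor Reg3b was called.

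Ccl25 (chr8:4325210-4360020, plus strand), the small-intestinal chemokine for CCR9-positive T cells, was at 179, 148, 42.9 and 43.1 CPM, with a log2 fold change of -1.81 (SE 0.28) and an edgeR adjusted p of 0.00724. It was thus lower where the CXCR3 ligands were higher. Otc (chrX:10252305-10321024, plus strand), an enzyme of citrulline synthesis, was at 167, 171, 47.9 and 24.7 CPM, with a log2 fold change of -2.11 (SE 0.30) and an adjusted p of 0.00537. Fcgbp, a mucus protein of goblet cells, was at 216, 218, 79.3 and 44.4 CPM. Insc, an adaptor that orients the mitotic spindle in asymmetric division, was at 18.6, 15.2, 2 and 2.54 CPM, with a log2 fold change of -2.77 (SE 0.55) and an adjusted p of 0.0362, and DESeq2 did not call it. Pla2g5, a secreted phospholipase, was at 35.6, 31.6, 3.49 and 7.61 CPM. Cck, an enteroendocrine hormone, had 28 syngeneic and 2 allogeneic UMIs.

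Secretory markers were present within members, although the rule removed cells rich in Lyz1 and Defa. The Paneth list summed to 3985, 4999, 7097 and 7143 CPM, and 2 of 13 genes tested were higher. The difference in the sum was largest in members with 6 to 11 mitotic UMIs, at 2109, 3071, 11220 and 8653 CPM, and the groups overlapped in members with 24 or more. Ang4, a secreted antimicrobial ribonuclease, was at 42.5, 59.5, 374 and 440 CPM, with a log2 fold change of 3.14 (SE 0.35) and an edgeR adjusted p of 0.000858, and Mmp7, the protease that activates defensins, at 269, 366, 1585 and 921 CPM, with a log2 fold change of 2.08 (SE 0.33) and an adjusted p of 0.00948. Lyz1 overlapped between the groups, at 611, 766, 1133 and 728 CPM. The part of Paneth transcripts picked up from other cells was not tested. Of 14 goblet genes 0 were higher and 1 was lower, and of 7 absorptive progenitor genes 0 passed.

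Markers of T and NK cells were close to absent from members. The 16 listed genes summed to 2.32, 3.80, 9.48 and 10.2 CPM in members, against 37837, 72654, 40493 and 32415 CPM in the lymphocytes of the same libraries, and Trac, Cd8b1, Nkg7 and Gzmb were at 0. None of the genes of the T and NK, B and stromal lists was abundant enough to be tested. Of the 8 epithelial genes 0 passed, and they summed to 6981, 6870, 6559 and 7637 CPM in members. The lymphocytes numbered 4, 16, 127 and 79. Ido1, Cxcl9 and Iigp1 were at 0 CPM in the allogeneic 1 lymphocytes, where they reached 238, 194 and 359 CPM in members. In allogeneic 2 lymphocytes Ido1 was at 6.69 CPM and Cxcl9 and Iigp1 at 0, beside 581, 727 and 449 CPM in members. The interferon-gamma GTPases summed to 479 and 395 CPM in the allogeneic lymphocytes, below the 1444 and 1921 CPM in members.

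The share of members with a UMI of these genes differed between the groups as well. In members thinned to 5000 UMIs, Ly6a had a UMI in 11.9%, 9.59%, 72.6% and 100% of cells (16.6%, 16.7%, 83.1% and 100% before thinning). Ido1 had a UMI in 0 of 118 and 0 of 73 syngeneic members, which allows up to 2.54% and 4.11%, and in 43.2% and 87.4% of allogeneic ones. Cxcl9 had a UMI in 0.848%, 2.74%, 27.4% and 68.1%. B2m was found in 89.8% to 100% of members in every library, so its difference is in level. As a gauge of free RNA, at 1000 UMIs a cell Cxcl9 was in 0 of 226 lymphocytes, which allows up to 1.33%, and in 11.7% and 41.5% of allogeneic members, and Ly6a was in 3.94% and 10.1% of allogeneic lymphocytes and in 38.3% and 79.3% of allogeneic members. The lymphocytes were chosen with Epcam at 0, which favours barcodes with little free epithelial RNA, so this gauge may read low. For Ly6a, RNA of the lymphocytes themselves cannot be told apart from free RNA. The share in allogeneic members was above that gauge for both genes.

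Per thinned cell the summed interferon-gamma GTPases had a median of 1, 1, 6 and 9 UMIs. The lower and upper deciles were 0 and 4, 0 and 3, 2 and 14, and 4 and 16 UMIs. The sum was 0 in 29.7%, 35.6%, 4.11% and 0% of cells. For the MHC class I list the upper decile of syngeneic members was 35.3 and 33 UMIs, and the lower decile of allogeneic members was 39.5 and 41, so that these ranges did not meet. For Ly6a the median was 0, 0, 2 and 10 UMIs, with no UMI in 27.4% of allogeneic 1 members and in 0% of allogeneic 2 members. Olfm4 had a median of 18, 17, 14 and 4 UMIs, and Reg3g of 10, 17, 3 and 3.

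**Figure D5:**
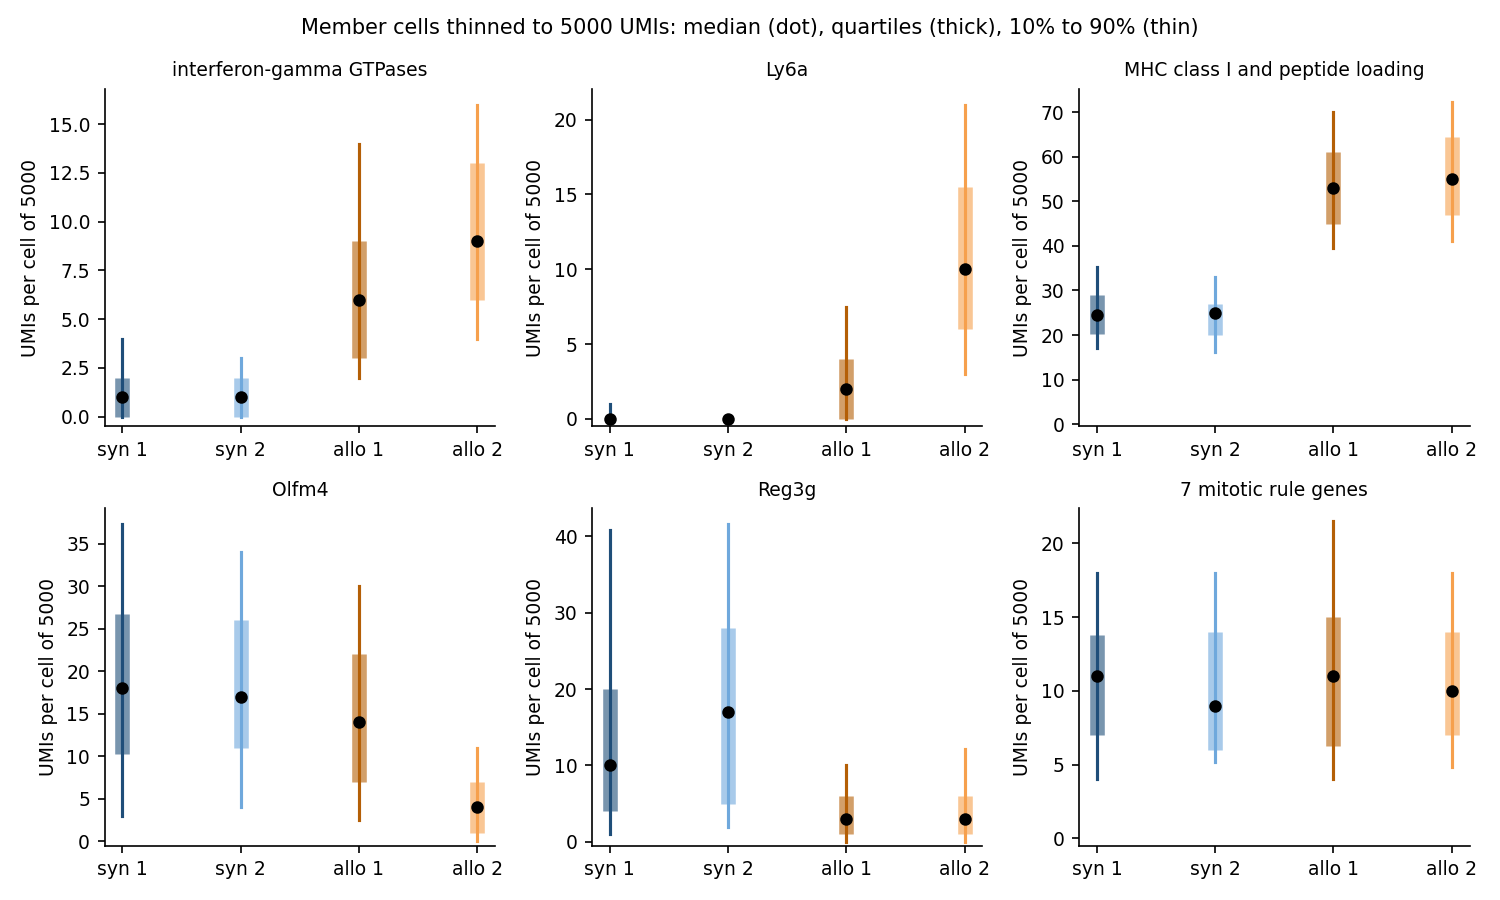
UMIs per member thinned to 5000 UMIs, for 2 gene lists, 3 genes and the 7 mitotic genes of the rule (which chose the cells), with the median as a dot, quartiles as a thick bar and the range between the lower and upper deciles as a thin bar. The MHC class I ranges of syngeneic and allogeneic members do not meet, whereas those of the rule genes lie at medians of 9 to 11 in all libraries.

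Among members with 6 to 11 mitotic UMIs Ly6a was at 21.9, 33.4, 562 and 2109 CPM, and among those with 24 or more it was at 14.9, 43.3, 601 and 2474 CPM. B2m was at 545, 595, 1641 and 2049 CPM in the lower range and at 497, 437, 1657 and 1703 CPM in the upper. In each range both allogeneic values lay above both syngeneic ones for these 2 genes. The secretory sums were not alike across the range. The Paneth list summed to 2109, 3071, 11220 and 8653 CPM in members with 6 to 11 mitotic UMIs and to 4195, 6451, 5768 and 6137 CPM in those with 24 or more, where the groups overlapped. The goblet list summed to 4237, 2464, 6022 and 8024 CPM in the lower range, to 5544, 10780, 3719 and 5106 CPM at 12 to 23 UMIs and to 6104, 3609, 3864 and 3466 CPM in the upper. Both allogeneic goblet sums were above the syngeneic ones in the lower range and below them at 12 to 23 UMIs, and the groups overlapped in the upper range. Olfm4 was at 3335, 3388, 2016 and 838 CPM in members with 1 Lgr5 UMI and at 4702, 3906, 3541 and 1267 CPM in those with 2 or more. Cells with more Lgr5 UMIs were deeper, at medians of 8966, 8817, 12740 and 12100 UMIs against 7126, 7656, 11380 and 9513, so these splits are descriptions.

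The transplant effect in members was next compared with that in Lgr5-positive cells outside mitosis, of which there were 125, 71, 83 and 25. The question was whether dividing stem cells responded differently from the other Lgr5-positive cells. An interaction of class and transplant, with the library as a block, was fitted in edgeR over 7531 genes. The difference of log2 fold changes, members minus the other class, was positive for 1 gene (0.0133%) and negative for 5 (0.0664%). No gene of the interferon, MHC or mitosis lists differed, and the median difference of log2 fold changes was -0.09 for the 15 interferon-gamma GTPases and 0.05 for the 23 MHC class I genes, beside 0.04 over all genes. At an unadjusted p under 0.05 there were 392 genes, and DESeq2 called 4.

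The 5 genes with a negative difference included Zg16, Tff3, Muc2 and Agr2, which are goblet cell genes. The other was Fabp2, a fatty acid-binding protein of absorptive cells. Muc2, the main gel-forming mucin, was at 412, 478, 223 and 173 CPM in members and at 265, 264, 381 and 623 CPM outside mitosis. Its difference was -1.88 (SE 0.22, edgeR adjusted p = 2.47e-05). Agr2, which folds mucins, was at 1529, 1745, 723 and 1039 CPM in members and 714, 894, 738 and 1479 CPM outside, a difference of -1.22 (SE 0.17, adjusted p = 0.000245). For Muc2 the allogeneic values were below the syngeneic ones in members and above them outside mitosis. Tff3, a trefoil peptide, had 891, 678, 1634 and 582 UMIs in members and 169, 118, 1003 and 111 outside, a difference of -2.47 (SE 0.17). Zg16, a lectin of the mucus layer, had 421, 191, 17 and 330 UMIs in members and 24, 5, 40 and 268 outside, a difference of -6.49 (SE 0.28). The allogeneic 2 values outside mitosis rest on 25 cells. Muc2 and Agr2 were no longer called with a mitochondrial limit of 10%, and Muc2 and Zg16 with at least 10 mitotic UMIs or with cells thinned to 2000 UMIs. DESeq2 did not call Fabp2. The gene with a positive difference was Gip, an enteroendocrine hormone with UMIs in a single library of each class, which DESeq2 did not call.

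The goblet list as a whole had 4 of 14 genes with a negative difference, and a median difference of -1.43. Its summed level was 5471, 6584, 4116 and 4520 CPM in members, and 3194, 4596, 9256 and 10356 CPM in the cells outside mitosis. These sums were higher in both allogeneic libraries outside mitosis and lower in the pool of all members. In members with 6 to 11 mitotic UMIs both allogeneic sums were the higher. Outside mitosis the Paneth list summed to 3723, 5246, 13198 and 8409 CPM. The absorptive progenitor list summed to 1461, 722, 1533 and 9042 CPM there, and the groups overlapped for the enteroendocrine and tuft lists. The part of cell make-up in the differences between the classes was not tested.

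Against mitotic cells without an Lgr5 UMI, of which there were 624, 487, 495 and 1123, the effect could be compared over 10431 genes. The difference, members minus the others, was positive for 30 genes (0.288%) and negative for 9 (0.0863%). DESeq2 called 9, and 727 had an unadjusted p under 0.05. The sign does not give the size of an effect. Muc2, among the 30, had log2 ratios of mean CPM of -1.17 in members and -1.66 in the others. For Ccnd2, among the 9, they were -0.71 and -0.17. The calls were fewer with a syngeneic library left out, at 10 without syngeneic 1 and 7 without syngeneic 2. Of the interferon-gamma GTPases and of the MHC lists 0 genes differed, with median differences of -0.13, 0.06 and -0.14 for GTPases, class I and class II. The stem cell list had 0 of 24.

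Among the genes with a positive difference were immediate-early genes, 4 of 26 on that list. Egr1 was at 51.6, 46.3, 120 and 77.3 CPM in mitotic cells without Lgr5, and its difference was 1.33 (SE 0.21, edgeR adjusted p = 5.87e-05). Klf6 was at 55.8, 44.7, 81 and 77.5 CPM there, a difference of 1.29 (SE 0.21, adjusted p = 5.87e-05), and Atf3 at 38, 25.5, 36.7 and 61.5 CPM, a difference of 1.66 (SE 0.27). In these 3 genes both syngeneic libraries were lower in members than in mitotic cells without Lgr5, and both allogeneic libraries were higher. DESeq2 called Egr1 and did not call Klf6 or Atf3. These genes were picked for the text after their values were seen, by their list.

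Secretory genes also differed in effect. Itln1, an intestinal lectin on the Paneth list, was at 566, 763, 573 and 558 CPM in members and at 707, 892, 279 and 311 CPM in mitotic cells without Lgr5, a difference of 1.20 (SE 0.11, edgeR adjusted p = 4.15e-13). Defa17, an alpha-defensin, was at 255, 175, 249 and 282 CPM in members. It was at 194, 155, 48.4 and 78.1 CPM in the others, a difference of 1.76 (SE 0.15). Lyz1 and Spink4 differed by 0.70 and 0.81. For Itln1, Defa17 and Spink4 both allogeneic values lay below both syngeneic ones in the cells without Lgr5, while the groups overlapped in members. Lyz1 and Defa17 enter the 5% limit that chose the cells of both classes, so their differences are descriptions only. Defa genes may also share reads. Guca2a, which encodes guanylin, was at 159, 153, 246 and 244 CPM in members and 381, 377, 224 and 226 CPM in the others, a difference of 1.38 (SE 0.13, adjusted p = 9.19e-13).

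The difference was negative for 9 genes, none of which DESeq2 called. Rrm2, a subunit of ribonucleotide reductase that peaks in S phase, was at 45.6, 49.4, 41.9 and 81.9 CPM in members and at 49.8, 49.5, 99.1 and 135 CPM in mitotic cells without Lgr5, a difference of -0.89 (SE 0.22, edgeR adjusted p = 0.0307). Phgdh, the first enzyme of serine synthesis, was at 51, 68.3, 67.3 and 74.2 CPM against 27.9, 29.2, 81.9 and 70.1 CPM, a difference of -1.15 (SE 0.21). Ccnd2, a D-type cyclin, was at 355, 375, 272 and 173 CPM against 368, 371, 433 and 222 CPM, a difference of -0.52 (SE 0.12, adjusted p = 0.0171). Ifitm3, an antiviral membrane protein enriched in crypt base cells, was at 1255, 1368, 1953 and 2636 CPM against 610, 615, 1371 and 1455 CPM, a difference of -0.42 (SE 0.10, adjusted p = 0.0268). The others were Tm7sf2, Gsta4, Fam162a, Avpi1 and Nap1l1.

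The 12 genes with the largest positive differences were Gip, Chp2, Pmp22, 2010109I03Rik, Apoc3, Apoa4, Dpep1, Car4, Slc13a1, Rbp2, Spink1 and Clca4b, several of which are enterocyte genes. Gip had its 38 member UMIs in allogeneic 1, and each of the other 11 had more member UMIs in allogeneic 2 than in the other libraries together. Rbp2, a retinol-binding protein of enterocytes, had 2, 4, 29 and 266 UMIs in members and 86, 69, 81 and 969 in mitotic cells without Lgr5, a difference of 3.16 (SE 0.46, edgeR adjusted p = 3.43e-06). Krt20, a marker of mature epithelium, was at 4.64, 3.80, 9.48 and 72.3 CPM in members. Allogeneic 2 was thus the library in which members carried most of these transcripts.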

How the data were processed

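Droplet 3′ single-cell RNA libraries (10x Genomics, NovaSeq) of crypts released with EDTA and TrypLE were deposited by the authors as UMI counts per gene and cell. The submitters' processing notes name Cell Ranger 2.1.1 and mm10, while the matrix headers record software version 3.1.0. No per-sample column was left unused (0). The members and all gene lists (38 lists, 672 genes) were chosen with earlier results of these data known.

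The deposited counts were filtered by the rule, and member UMIs were summed per library, the replicate, since cells are not replicates. edgeR 4.0.16 in R 4.3.3 was run with filterByExpr by group, TMM factors, a robust quasi-likelihood fit and Benjamini-Hochberg adjustment at 0.05. The SE is the absolute log2 fold change divided by the square root of F. The interactions used the library as a block. Shares were tested over libraries by exact permutation (scipy 1.17.1). Exact 95% binomial intervals and the 3-count limit for a count of 0 cover counting error only. For the shares and the fit within members, p-values measure the spread between pools of mice. In the interactions the block takes up the shared level of each library. Their p-values therefore measure how far the difference between the classes varied from library to library, and not the spread between pools. DESeq2 1.42.0 and Scrublet (scanpy 1.11.5) served alternatives, with other limits of the rule, scalings, filters, thinned cells and each library left out. Genes were named as the 12 largest called changes in each direction of each fit whose groups did not overlap, up to 4 genes of lowest p in each list, the rule's genes and a set of standard stem cell, cell cycle and response genes. Some called genes of the interactions were named outside this rule, as stated beside them. Scripts were tested on simulated data. Gene positions are from GENCODE M21 (GRCm38) and promoters from RefSeq (GRCm38.p6).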

Additional observations from a re-analysis of the deposited data

Results flagged for a closer look

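The results listed here differed in their transplant effect between members and another class of cells, by a test of the difference itself (the class by transplant interaction in edgeR, adjusted p under 0.05). Values are log2 fold changes of members minus those of the other class. Against Lgr5-positive cells outside mitosis the differences were -6.49 for Zg16, -2.47 for Tff3, -1.88 for Muc2, -1.25 for Fabp2 and -1.22 for Agr2, and 15.6 for Gip. The value for Gip rests on 38 UMIs in 1 member library and 52 UMIs in 1 library of the other class, depends on the prior count, and was not called by DESeq2.

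Against mitotic cells without Lgr5 the difference was -1.95 for Tm7sf2, -1.87 for Gsta4, -1.15 for Phgdh, -0.93 for Fam162a and -0.93 for Avpi1. It was -0.89 for Rrm2, -0.54 for Nap1l1, -0.52 for Ccnd2 and -0.42 for Ifitm3. Positive differences included 1.66 for Atf3, 1.33 for Egr1, 1.29 for Klf6, 1.76 for Defa17, 1.20 for Itln1 and 0.70 for Lyz1. Further ones were 0.81 for Spink4, 0.48 for Muc2, 1.38 for Guca2a, 1.95 for Spink1 and 1.81 for Clca4b. The largest fitted differences came from genes with few syngeneic member UMIs and depend on the prior count. They were 16.4 for Gip, 8.15 for Chp2, 7.67 for Pmp22, 6.57 for 2010109I03Rik, 4.25 for Apoc3, 4.13 for Apoa4, 4.04 for Dpep1, 4.01 for Car4, 3.23 for Slc13a1 and 3.16 for Rbp2. Of these 10 genes DESeq2 called Rbp2.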

How the results depend on the processing

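No paired analysis was possible because the labels number the libraries only in record order and tie no syngeneic library to an allogeneic one. The 87 calls within members kept their sign in every alternative that tested them, and 62 were still called by DESeq2, which called 61 genes higher. Without the low-count filter 181 were higher and 60 lower. With members thinned to 5000 UMIs 36 were higher and 4 lower, and 40 of the 73 original calls that were still tested remained. DESeq2 called 8 lower and a mitochondrial limit of 10% gave 22 lower. Leaving out each library in turn gave 52 to 1115 higher and 9 to 620 lower genes. A lone library is then assumed to vary like the other group, and the most calls came without an allogeneic library. Of 48 called genes named in the text, 19 passed in every alternative that tested them, among them Ido1, Ubd, Ly6a, Gbp2, H2-Q7, Ang4, Otc and Ccl25. B2m, Reg3g, Reg3b and Mmp7 each lost the call in 2 of 13 alternatives, Irf1 in 3, H2-Aa in 4 and Stat2 in 6.

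The interaction against Lgr5-positive cells outside mitosis (6 genes) gave 12 without the filter, 2 with the 10% limit, 3 with cells thinned to 2000 UMIs, and 5 to 76 when a library was left out. The interaction against mitotic cells without Lgr5 (39 genes) gave 9 with DESeq2, 62 without the filter and 7 to 129 when a library was left out. Fabp2 turned to 0.0376 without doublets and to 1.12 with at least 2 Lgr5 UMIs. With that Lgr5 limit Car4 turned to -3.56, Slc13a1 to -0.12 and Muc2 to -0.16, and leaving out a library gave -1.95 to 4.38 for Car4 and -1.38 to 8.91 for Slc13a1. The causes were not tested.

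The difference in members as a share of Lgr5-positive cells (19.9 points) ranged from 10.2 to 29.6 with a library left out and was 5.54 after thinning. The difference of 1.10 points in the share of cells without Ptprc became -0.0904 after thinning, and -1.55 to 3.75 with a library left out. The difference of 0.00328 points in the share of mitotic cells became -0.0544 without doublets, -1.71 after thinning, and -6.495 to 6.502 with a library left out.

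Genes that were not called changed sign around 0 in some alternatives. Among them Mki67, Ccnb1, Birc5 and Cdk1 chose the cells, so their values are descriptions only. With a library left out the ranges were -0.56 to 0.0109 for Ascl2, -0.81 to 0.19 for Smoc2, -0.81 to 0.23 for Slc12a2, -0.23 to 0.0868 for Plk1, -0.00417 to 0.43 for Ccnb2, -0.35 to 0.22 for Cenpf, -0.15 to 0.41 for Pcna, -0.14 to 0.16 for Mdm2, -0.12 to 0.0886 for Myc, -0.73 to 0.0261 for Mki67, -0.0106 to 0.50 for Ccnb1, -0.0299 to 0.32 for Birc5 and -0.0791 to 0.49 for Cdk1. With at least 2 Lgr5 UMIs the values were 0.00907 for Plk1, -0.0765 for Ccnb2, -0.0793 for Cdc20, -0.38 for Pcna, -0.10 for Mcm6 and -0.18 for Mdm2. With at least 10 mitotic UMIs they were 0.0189 for Cenpf and -0.13 for Mdm2. Mdm2 was at -0.14 with the 10% limit, and Cenpf at 0.00291 without the filter and 0.16 after thinning. Myc was at -0.0172 with DESeq2, -0.0189 with its size factors in edgeR and -0.23 after thinning.

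Depth limits the rarest genes. Syngeneic members held 3 or fewer UMIs of Ido1, Cxcl9 and Cxcl10, and their ratios have wide counting intervals. The smallest p of an exact permutation of the shares over 2 against 2 libraries is 0.3333.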
